A study of Oryctolagus cuniculus with 24 samples.

Results

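The fibulins are a family of secreted matrix glycoproteins built from repeats of calcium-binding EGF-like domains and closed by a shared C-terminal module. They bind elastin, fibrillin microfibrils, fibronectin, proteoglycans and basement membrane proteins, and so link matrix networks to each other. The short fibulins FBLN5 and EFEMP2 are needed to assemble elastic fibres in mice. Keratocytes live between the collagen lamellae of the cornea and turn into fibroblasts or myofibroblasts when serum or TGF-β1 reaches them.

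The family was taken by gene name, as FBLN1, FBLN2, FBLN5, FBLN7, EFEMP1, EFEMP2 and HMCN1. Of these 7 names, 6 have a row among the 23428 genes of the count table, and all 6 are among the 13308 genes that passed the filter on low counts and were tested. EFEMP2 was not analysed here. The table also holds records without a symbol that it annotates to proteins of the family, LOC103346332 to fibulin-1 and LOC100344526 to hemicentin-1. They are given apart from the members, since reads of 1 gene may have been split between records.

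RNA was sequenced from primary rabbit keratocytes of passage 1, seeded in serum-free medium on glass with a collagen coat and kept for 6 days, with 8 libraries in each of 3 conditions. In the TGF-β1 condition (myofibroblast in the labels) the medium was changed on day 1 and again on day 3 to serum-free medium with TGF-β1 at 5 ng/mL. In the FBS condition (fibroblast) the day 1 change was to serum-free medium and the day 3 change to DMEM with fetal bovine serum at 10%. In the serum-free condition (keratocyte) both changes were to serum-free medium. Serum was thus present for fewer days than TGF-β1, and the labels do not name the base of the serum-free medium. No label ties a replicate to its own animal or culture, so p-values measure only the spread between these libraries, which may be technical. In bulk RNA, fewer expressing cells and less RNA per cell cannot be told apart.

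Total counts per library were 15410285 to 20911192 with TGF-β1, 15659561 to 22528261 with FBS and 17151397 to 21540864 in serum-free medium. The libraries of each condition are numbered 5 to 12, and the count table lists numbers 5 to 8 of all conditions before numbers 9 to 12. These sets of 4 libraries stood apart for most members, so values within each set stand beside the pooled ones. Keratocyte markers (6 of 7 with a row) summed to 13830.2 to 22500.0 with TGF-β1, 2015 to 4241 with FBS and 42629 to 58755 in serum-free medium, in read counts scaled to library size (CPM). The means of DCN, LUM and KERA had that order of conditions. AQP1 was instead highest with TGF-β1 (1568 ± 145 CPM, 243 ± 73.3 with FBS and 584 ± 185 in serum-free medium). CD34 (6.12 and 13 CPM) and ALDH1A1 (186 and 210 CPM) had lower means with TGF-β1 than with FBS. Myofibroblast markers (4 of 5) summed to 2073 to 4414 CPM with TGF-β1, 464 to 1135 with FBS and 10.7 to 46 in serum-free medium. POSTN made up most of the TGF-β1 sum (2460.1 ± 795 CPM with TGF-β1, 50.1 ± 11.3 with FBS), while ACTA2 was lower with TGF-β1 (231 ± 125 CPM) than with FBS (479 ± 221 CPM; -1.05, edgeR adjusted p = 0.0127). Of 8 corneal epithelial markers 7 have a row, and their sum was at most 1.24 CPM in any library, with KRT12 at 0 in all. Vascular endothelial markers (5 of 5) summed to 52.1 to 113 CPM with TGF-β1, 13.8 to 19 with FBS and 246 to 368 in serum-free medium. KDR made up most of that sum (72.9 ± 28.2, 13.5 ± 1.53 and 305 ± 35.4 CPM). The means of CDH5, VWF and TEK had the same order of conditions as KDR. The PECAM1 mean was instead highest with FBS and lowest in serum-free medium (0.283, 0.679 and 0.0652 CPM). Immune markers (5 of 5) summed to 5.38 to 8.41, 11.3 to 25.8 and 2.81 to 5.23 CPM. CD68 made up most of the immune sum (6.63 ± 0.993, 18.3 ± 5.98 and 2.35 ± 0.873 CPM), and the means of PTPRC, CD74, TYROBP and CYBB were lower in both treatments than in serum-free medium, each at most 0.998 CPM. Corneal endothelial markers (4 of 4) summed to 3001 to 3795, 899 to 1062 and 1194 to 1547 CPM, the same order of conditions as FBLN5, with ZP4 at 0 in all and COL8A2 at 2586 ± 257, 294 ± 39.8 and 1008 ± 116 CPM. Smooth muscle and pericyte markers (5 of 5) summed to 59 to 129.5, 75.3 to 121 and 37.7 to 70.6 CPM. CSPG4 made up most of that sum (84.7 ± 27.9, 85.4 ± 18.9 and 49.7 ± 12 CPM). The MYH11 means had the same order of conditions as CSPG4 (5.54, 7.81 and 1.93 CPM). Those of NOTCH3 (3.33, 6.89 and 3.99), DES (0.310, 0.277 and 0.706) and RGS5 (0.163, 0.129 and 0.107 CPM) did not. Glia and melanocyte markers (6 of 6) summed to 8.39 to 18.3, 9.31 to 13.7 and 15.2 to 23.1 CPM, with TYR at 0 with FBS and in serum-free medium. The part of all these marker lists in the fibulin results was not tested.

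FBLN5 was the most abundant fibulin transcript per unit of length in every library. Its deposited FPKM averaged 813 ± 48.1 with TGF-β1, 203 ± 23.9 with FBS and 558 ± 81.2 in serum-free medium (SD, n = 8). By mean FPKM it stood at position 67 of all genes with TGF-β1, 332 with FBS and 79 in serum-free medium. It made up 97% ± 0.273 of the summed FPKM of the 6 members with TGF-β1, 78.6% ± 4.32 with FBS and 93.5% ± 0.653 in serum-free medium. That sum was 838 ± 48.2 FPKM with TGF-β1, 260.0 ± 43.8 with FBS and 596 ± 83.9 in serum-free medium.

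The order of the other members differed between conditions. With TGF-β1 the mean FPKM was 15.9 ± 4.11 for FBLN1, 4.71 ± 2.94 for HMCN1, 2.51 ± 0.464 for FBLN2, 1.96 ± 0.239 for FBLN7 and 0.365 ± 0.191 for EFEMP1. Among these neighbours HMCN1 overlapped FBLN2, and FBLN2 overlapped FBLN7. With FBS EFEMP1 came next after FBLN5 at 41.3 ± 17 FPKM, followed by FBLN1 at 11.1 ± 4.49, FBLN2 at 2.46 ± 0.986, FBLN7 at 2.24 ± 0.291 and HMCN1 at 0.230 ± 0.103. The one overlap between neighbours there was that of FBLN2 and FBLN7. In serum-free medium FBLN1 had 23.8 ± 9.76, FBLN7 9.12 ± 4.91, HMCN1 2.34 ± 1.23, FBLN2 1.86 ± 0.502 and EFEMP1 1.09 ± 0.476 FPKM. FBLN1 overlapped FBLN7 there, HMCN1 overlapped FBLN2, and FBLN2 overlapped EFEMP1. EFEMP1 was therefore the lowest member with TGF-β1 and in serum-free medium but second with FBS. The FBLN1 model is 1538 bases long and lies on an unplaced scaffold, so its FPKM depends on how complete that model is.

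**Figure D1:**
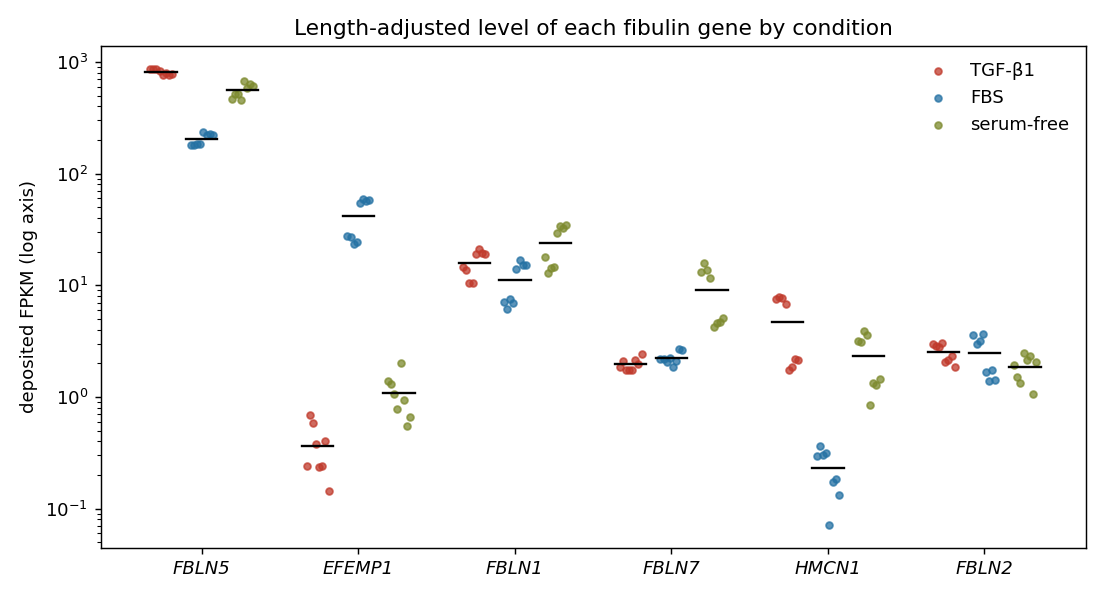
Deposited FPKM (log axis) of the 6 fibulin genes with a row in the table, in libraries of the TGF-β1, FBS and serum-free conditions; points are single libraries and bars the mean of 8. FBLN5 lies above every other member in all 24 libraries, and EFEMP1 is second with FBS (mean 41.3 FPKM) but lowest with TGF-β1 (mean 0.365 FPKM).

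Against serum-free medium, TGF-β1 raised FBLN5 and HMCN1 and lowered FBLN7, EFEMP1 and FBLN1, while FBLN2 did not pass. These are 5 of 6 members at an adjusted p under 0.05, against 64.3% of all genes tested. The 2 higher and 3 lower members stand beside 31.2% and 33.1% of all genes. Of the calls 3 were at least 2-fold (26.1% of all genes), and libraries did not overlap for 2 members (33.9%). The members' median log2 fold change was -0.08, beside -0.03 over all genes.

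FBS raised EFEMP1 and lowered FBLN1, FBLN5, FBLN7 and HMCN1 against serum-free medium, and FBLN2 again did not pass. These are 5 of 6 members against 80.0% of all genes, 1 higher and 4 lower beside 39.5% and 40.5%. At least 2-fold were 5 (46.5% of all genes), and 4 did not overlap (52.9%). The median was -1.28, beside -0.04 over all genes. Both comparisons use the same serum-free libraries.

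Between TGF-β1 and FBS 3 of 6 members were called, against 73.3% of all genes. FBLN5 and HMCN1 were higher with TGF-β1 and EFEMP1 was lower, beside 36.9% higher and 36.4% lower over all genes. All 3 were at least 2-fold (36.1%), and these 3 did not overlap (46.2%). The median was 0.27, beside 0.01 over all genes. With 6 members, nothing about the family is read from these shares.

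**Figure D2:**
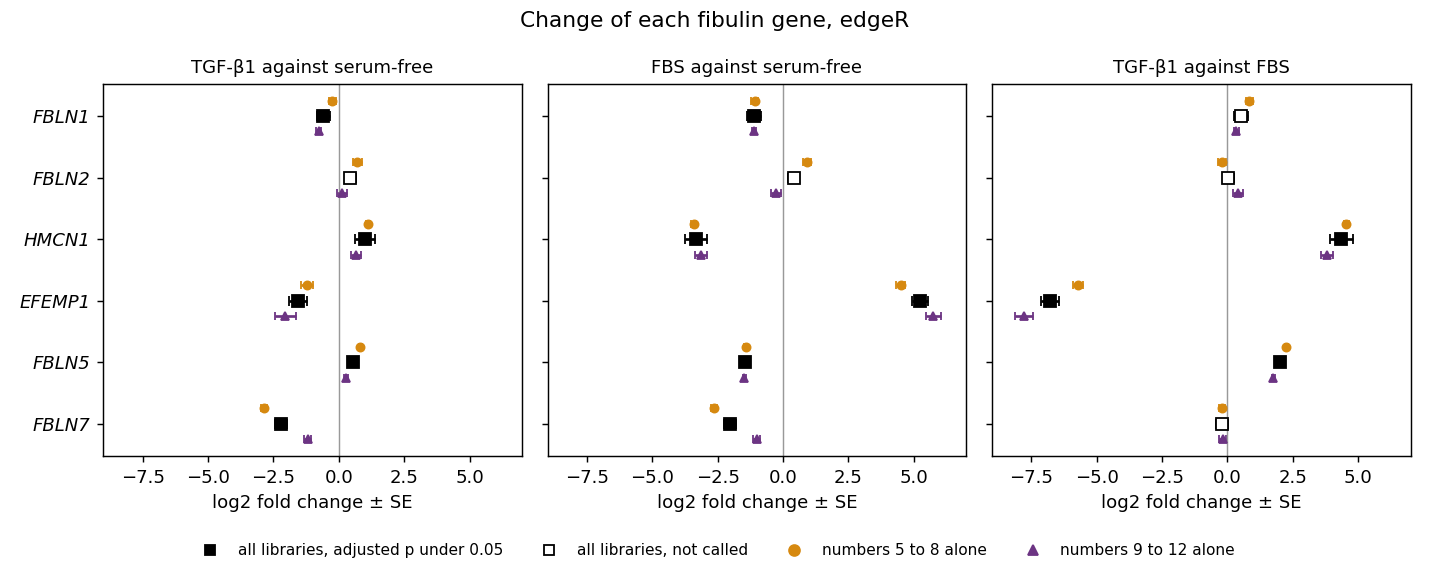
Log2 fold change (edgeR, with SE) of the 6 fibulin genes in the 3 comparisons, from all libraries (squares, filled where the adjusted p is under 0.05) and from library numbers 5 to 8 (circles) and 9 to 12 (triangles) alone. FBLN5 and HMCN1 lie above 0 with TGF-β1 and below 0 with FBS against serum-free medium, EFEMP1 lies the other way round, and FBLN2 has opposite signs in the sets with FBS (0.90 and -0.28).

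Among the short fibulins, FBLN5 encodes fibulin-5, an integrin-binding protein that helps bring elastin and its crosslinking enzymes onto microfibrils. The table places it on chromosome 20 at 13959475 to 14039627, plus strand; for this and the other positions no source used here names the build. Its level was 1936 to 2259 CPM (median 2081) in the 8 TGF-β1 libraries, 459.6 to 609 CPM (median 519) in the FBS libraries and 1176 to 1753 CPM (median 1422) in the serum-free libraries. Every TGF-β1 library was above every serum-free one, and every FBS library below both. With TGF-β1 FBLN5 was 1.45-fold its serum-free level on a linear scale (log2 fold change 0.54, SE 0.09, edgeR adjusted p = 1.30e-05). With FBS its log2 fold change was -1.46 (SE 0.09, edgeR adjusted p = 1.07e-13), a 2.75-fold lower level. It was higher with TGF-β1 than with FBS by 2.00 on the log2 scale (SE 0.10, edgeR adjusted p = 3.55e-16). Of all genes, 48.0%, 31.2% and 13.9% had a larger absolute log2 fold change than FBLN5 in these 3 comparisons.

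The rise of FBLN5 with TGF-β1 was larger in library numbers 5 to 8 (0.82) than in 9 to 12 (0.28), and it passed in both. A set-by-condition term in edgeR, which tests that difference, passed as well (edgeR adjusted p = 4.59e-05; the term passed for 10.3% of all genes). In the first set FBLN5 averaged 2207 ± 57.1 CPM with TGF-β1 and 1249 ± 83.5 CPM in serum-free medium (SD, n = 4). In the second it averaged 1972 ± 46.6 CPM with TGF-β1 and 1626 ± 104 CPM in serum-free medium. The fall with FBS was -1.42 and -1.48 in the sets.

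EFEMP1 encodes fibulin-3, a short fibulin of connective tissue and retina in which a missense change causes an inherited macular dystrophy. The table places it on chromosome 2 at 130178542 to 130244729, plus strand. It held 0.390 to 1.90 CPM (median 0.836) in the TGF-β1 libraries, 63.6 to 163 CPM (median 112) in the FBS libraries and 1.52 to 5.52 CPM (median 2.71) in the serum-free libraries. FBS libraries stood far above all others, and the TGF-β1 and serum-free ranges overlapped. Over 8 libraries these levels rest on 129 counts with TGF-β1, 19237 with FBS and 453 in serum-free medium.

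With FBS EFEMP1 was 37.8-fold higher than in serum-free medium (log2 fold change 5.24, SE 0.30, edgeR adjusted p = 1.16e-14), and 2.48% of all genes had a larger absolute log2 fold change. With TGF-β1 it fell to 0.994 ± 0.528 CPM, against 2.95 ± 1.29 CPM in serum-free medium (-1.55, SE 0.34, edgeR adjusted p = 0.000334), and limma on log2(FPKM + 1) gave -0.59. It was 110.3-fold lower with TGF-β1 than with FBS (-6.79, SE 0.34, edgeR adjusted p = 1.09e-15), where 0.706% of all genes had a larger change. These were the members' largest changes in both comparisons. Within the sets the rise with FBS was 4.5 and 5.74, and the set-by-condition term passed (edgeR adjusted p = 0.00826, against 22.4% of all genes). FBS libraries numbered 5 to 8 held 69.6 ± 5.30 CPM and those numbered 9 to 12 156 ± 5.47 CPM, while serum-free libraries held 3.05 ± 0.712 and 2.85 ± 1.83 CPM.

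**Figure D3:**
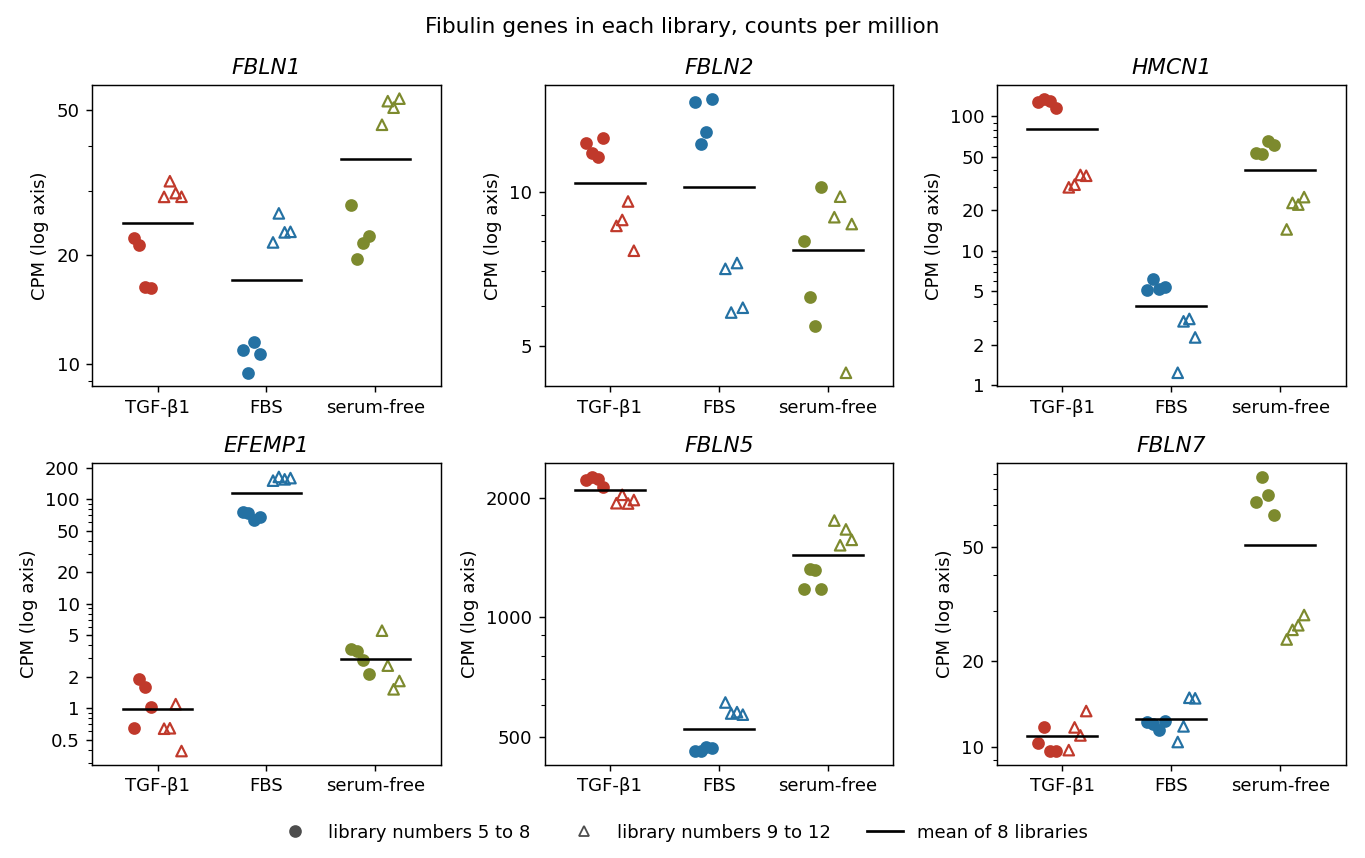
CPM (log axis) of each fibulin gene in every library of the TGF-β1, FBS and serum-free conditions, with library numbers 5 to 8 as filled circles, 9 to 12 as open triangles and bars at the mean of 8 libraries. The conditions do not overlap for FBLN5, FBS stands apart for EFEMP1 (63.6 to 163 CPM) and HMCN1 (1.24 to 6.13 CPM), and serum-free medium stands apart for FBLN7 (23.8 to 88.1 CPM).

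FBLN7 encodes fibulin-7, an adhesion protein first described in developing teeth. The table places it on chromosome 2 at 97078646 to 97127071, plus strand. It held 9.70 to 13.4 CPM (median 10.7) with TGF-β1, 10.4 to 14.9 CPM (median 12.2) with FBS and 23.8 to 88.1 CPM (median 46.9) in serum-free medium. Every treated library lay below every serum-free one, and the treatments overlapped. The log2 fold change was -2.21 with TGF-β1 (SE 0.24, edgeR adjusted p = 8.31e-09) and -2.02 with FBS (SE 0.23, edgeR adjusted p = 1.38e-08). Between TGF-β1 and FBS it was -0.19 (SE 0.23, edgeR adjusted p = 0.462), which passed in 1 of 35 settings, scaling by total counts (-0.59).

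The serum-free libraries of the sets differed for FBLN7. Numbers 5 to 8 held 75.2 ± 9.71 CPM and numbers 9 to 12 26.3 ± 2.15 CPM (SD, n = 4). Treated libraries differed less, at 10.4 ± 0.997 and 11.5 ± 1.51 CPM with TGF-β1 and 12 ± 0.373 and 13 ± 2.23 CPM with FBS. The fall with TGF-β1 was -2.85 in the first set and -1.19 in the second, and with FBS -2.64 and -1.01. Each fall passed within its set, and the set-by-condition term passed in both comparisons (edgeR adjusted p = 1.33e-07 and 4.75e-08).

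Of the long fibulins, FBLN1 encodes fibulin-1, found in basement membranes and elastic fibres and able to bind fibronectin. It held 16.3 to 31.9 CPM (median 25.6) with TGF-β1, 9.49 to 26 CPM (median 16.6) with FBS and 19.5 to 53.9 CPM (median 36.5) in serum-free medium. The conditions overlapped, and in each of them libraries numbered 9 to 12 all lay above those numbered 5 to 8. With FBS the log2 fold change against serum-free medium was -1.11 (SE 0.26, edgeR adjusted p = 0.000318), and -1.09 and -1.11 in the sets. With TGF-β1 it was -0.59 (SE 0.25, edgeR adjusted p = 0.0447), -0.25 in the first set (edgeR adjusted p = 0.0950) and -0.76 in the second (edgeR adjusted p = 2.06e-06).

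The TGF-β1 call on FBLN1 was lost in 13 of 36 settings, 8 of which left out 1 library. Those libraries were serum-free replicates 5, 6, 7 and 8 and TGF-β1 replicates 1, 2, 3 and 4, with log2 fold changes of -0.57 to -0.49 and edgeR adjusted p of 0.0691 to 0.0998. With the replicate block the call held (-0.51, edgeR adjusted p = 9.41e-05). Between TGF-β1 and FBS FBLN1 did not pass (0.52, SE 0.26, edgeR adjusted p = 0.0697), but it passed with the replicate block (0.59, edgeR adjusted p = 1.68e-05) and within each set (0.84 and 0.34).

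The unnamed fibulin-1 record LOC103346332, with a model of 641 bases on another unplaced scaffold, held a larger share of the fibulin-1 counts in treated cells. It averaged 4.14 ± 1.48 CPM with TGF-β1, 4.64 ± 2.73 CPM with FBS and 3.76 ± 2.17 CPM in serum-free medium, and passed in no comparison (edgeR adjusted p = 0.753, 0.445 and, between the treatments, 0.699). Of the counts on both records it held 14.2% ± 2.23 with TGF-β1, 20.5% ± 4.84 with FBS and 8.83% ± 2.08 in serum-free medium. FBS libraries lay above all serum-free ones. The log2 ratio of the records was higher by 1.4 with FBS than in serum-free medium (two-sided exact permutation test, p = 0.000155, the smallest that 8 against 8 can give, adjusted p = 0.000932 over 6 such tests). It was higher by 0.78 with TGF-β1 than in serum-free medium (exact permutation p = 0.000777, adjusted p = 0.00155) and differed by -0.62 between TGF-β1 and FBS (exact permutation p = 0.000777, adjusted p = 0.00155). With the counts of both records added, fibulin-1 still fell with FBS (-0.90, edgeR adjusted p = 0.00319) and did not pass with TGF-β1 (-0.50, edgeR adjusted p = 0.0974).

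**Figure D4:**
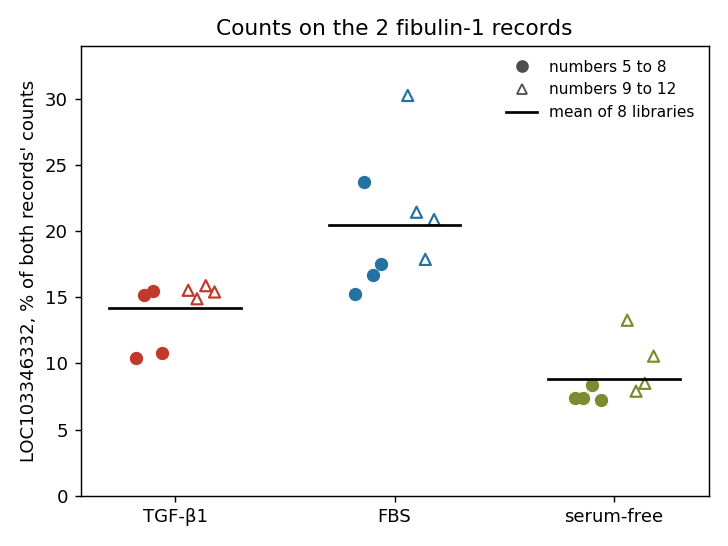
Share of LOC103346332 in the counts of both records annotated to fibulin-1 (percent, axis from 0) in each TGF-β1, FBS and serum-free library, with library numbers 5 to 8 as filled circles, 9 to 12 as open triangles and bars at the mean of 8 libraries. FBS libraries lie at 15.3% to 30.3%, above all serum-free libraries at 7.27% to 13.3%.

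FBLN2 encodes fibulin-2, a large fibulin of basement membranes and elastic tissue that also binds aggregating proteoglycans. The table places it on chromosome 9 at 4855598 to 4921709, minus strand. It held 7.67 to 12.7 CPM (median 10.6) with TGF-β1, 5.82 to 15.2 CPM (median 9.83) with FBS and 4.44 to 10.2 CPM (median 8.32) in serum-free medium, and all 3 ranges overlapped. The log2 fold change was 0.43 with TGF-β1 (SE 0.21, edgeR adjusted p = 0.0775), 0.41 with FBS (SE 0.21, edgeR adjusted p = 0.0802) and 0.03 between TGF-β1 and FBS (SE 0.21, edgeR adjusted p = 0.914). With TGF-β1 it rose in library numbers 5 to 8 (0.71, edgeR adjusted p = 0.000838) and did not pass in 9 to 12 (0.13, edgeR adjusted p = 0.604), and the set-by-condition term did not pass (edgeR adjusted p = 0.174). With TGF-β1 it passed in 4 of 35 settings, numbers 5 to 8 alone among them and none that left out 1 library.

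The sets gave different values for FBLN2 with FBS. In numbers 5 to 8 it averaged 13.9 ± 1.37 CPM with FBS and 7.47 ± 2.09 CPM in serum-free medium, a rise that passed (0.90, edgeR adjusted p = 4.08e-05). In numbers 9 to 12 it averaged 6.52 ± 0.749 CPM with FBS and 7.94 ± 2.38 CPM in serum-free medium (-0.28, edgeR adjusted p = 0.213). The set-by-condition term passed (edgeR adjusted p = 0.00171). The pooled change passed on leaving out FBS replicate 5, 6 or 8 (0.48 to 0.50), or 5 and 6 together (0.59, edgeR adjusted p = 0.0120).

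HMCN1 encodes hemicentin-1, also called fibulin-6, a very large protein of immunoglobulin-like repeats that ends in fibulin-type domains and whose nematode counterpart anchors cells to basement membranes. The table places it on chromosome 16 at 84198396 to 84477080, minus strand. It held 29.7 to 136 CPM (median 76.1) with TGF-β1, 1.24 to 6.13 CPM (median 4.09) with FBS and 14.4 to 66.1 CPM (median 39) in serum-free medium. FBS libraries all lay below the others, and the TGF-β1 and serum-free libraries overlapped. With TGF-β1 HMCN1 was 2.03-fold its serum-free level (1.02, SE 0.38, edgeR adjusted p = 0.0211). That call was lost without TGF-β1 replicate 2 (0.87, edgeR adjusted p = 0.0505). With FBS it was 10.1-fold lower than in serum-free medium (-3.33, SE 0.43, edgeR adjusted p = 7.28e-08). It was 20.4-fold higher with TGF-β1 than with FBS (4.35, SE 0.44, edgeR adjusted p = 1.50e-09). On log2(FPKM + 1), a scale that understates changes of low genes, limma gave 0.67, -1.35 and 2.03 for these 3 comparisons, all called.

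Within each set of library numbers the conditions did not overlap for HMCN1. Numbers 5 to 8 averaged 127 ± 8.55 CPM with TGF-β1, 5.43 ± 0.479 with FBS and 58.3 ± 6.49 in serum-free medium. Numbers 9 to 12 averaged 33.4 ± 3.56 CPM with TGF-β1, 2.40 ± 0.860 with FBS and 21.1 ± 4.62 in serum-free medium. The rise with TGF-β1 passed in both (1.13 and 0.67, edgeR adjusted p = 1.40e-09 and 0.00719). The gene model is 17020 bases long, and a library's deviation from its condition correlated with gene length across genes at Spearman's rho -0.0729 to 0.433 in numbers 5 to 8 and -0.528 to 0.0646 in numbers 9 to 12. Levels in 9 to 12 minus 5 to 8, on the log2 scale, were -1.93 with TGF-β1, -1.22 with FBS and -1.49 in serum-free medium for HMCN1. The median of the 244 tested genes of 10000 bases or longer was -0.13, -0.63 and -0.21. The part of gene length in the HMCN1 values was not tested.

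The unnamed hemicentin-1 record LOC100344526 averaged 3.36 ± 2.31 CPM with TGF-β1, 0.262 ± 0.156 CPM with FBS and 1.38 ± 0.682 CPM in serum-free medium. It rose with TGF-β1 (1.27, edgeR adjusted p = 0.00972) and fell with FBS (-2.36, edgeR adjusted p = 9.27e-05), as HMCN1 did. HMCN2, the gene of hemicentin-2, had 5 counts with TGF-β1, 0 with FBS and 172 in serum-free medium over 8 libraries each, and was not tested. Against a floor of 3 counts over the 8 libraries it was at least 67.6-fold lower with FBS than in serum-free medium, for counting error only.

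Elastic fibre and microfibril genes, the partners of fibulin-5, were mostly higher with TGF-β1 than with FBS. Of 14 tested, 8 rose and 3 fell with TGF-β1 against serum-free medium (median log2 fold change 1.04, beside 31.2% and 33.1% of all genes and a median of -0.03), and 1 rose and 8 fell with FBS (median -0.53, beside 39.5% and 40.5% and -0.04). Between TGF-β1 and FBS 12 were higher and 2 lower (median 1.55, beside 36.9% and 36.4% and 0.01). ELN, the elastin precursor, averaged 32.2 ± 5.28 CPM with TGF-β1, 1.24 ± 0.992 with FBS and 0.967 ± 0.662 in serum-free medium. Its log2 fold change was 5.06 with TGF-β1, and it did not pass with FBS (0.33, edgeR adjusted p = 0.468). FBN1, the fibrillin of microfibrils, averaged 3625 ± 774 CPM with TGF-β1, 912 ± 245 with FBS and 884 ± 159 in serum-free medium. It rose with TGF-β1 (2.04) and did not pass with FBS (0.04, edgeR adjusted p = 0.806).

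For the partner genes that follow, a pair of values in parentheses gives the log2 fold change with TGF-β1 and that with FBS, each against serum-free medium. LTBP2, a microfibril protein that binds fibulin-5, averaged 1996 ± 235 CPM with TGF-β1, 1.25 ± 0.456 with FBS and 3.48 ± 1.11 in serum-free medium (9.16 and -1.46). MFAP4, a microfibril-associated protein, fell in both treatments (-0.92 and -5.96), and so did EMILIN2 of the elastin-microfibril interface (-2.75 and -1.93). MFAP5 fell with FBS (-3.98) and did not pass with TGF-β1 (0.07), where EMILIN1 did not pass either (-0.15). Of the crosslinking enzymes LOXL4 rose in both (2.24 and 3.68) and LOXL2 rose with TGF-β1 (2.05) but did not pass with FBS (-0.08, edgeR adjusted p = 0.539). LOX did not pass with TGF-β1 (0.21, edgeR adjusted p = 0.0600) but did with the replicate block (edgeR adjusted p = 0.0238).

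Fibulin-1 and fibulin-2 bind fibronectin and aggregating proteoglycans. Genes of these partners and of link proteins rose with TGF-β1 in 4 of 4 tested cases (median 4.39, beside 31.2% of all genes and a median of -0.03). With FBS 2 rose and 1 fell (median 1.28, beside 39.5% and 40.5% and -0.04). FN1, fibronectin, averaged 21157 ± 3768 CPM with TGF-β1, 909 ± 219 with FBS and 5289 ± 1003 in serum-free medium (2.00 and -2.54). VCAN, versican, rose with TGF-β1 (4.99) and did not pass with FBS (-0.01, edgeR adjusted p = 0.979). ACAN, aggrecan, rose in both (6.40 and 3.37), as did the link protein gene HAPLN1 (3.78 and 2.57).

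Of 17 tested basement membrane genes, 7 rose and 7 fell with TGF-β1 (median -0.18), 4 rose and 9 fell with FBS (median -0.42), and 10 were higher and 4 lower with TGF-β1 than with FBS (median 0.66). Over all genes the shares higher and lower were 31.2% and 33.1%, 39.5% and 40.5%, and 36.9% and 36.4% in these comparisons, with medians of -0.03, -0.04 and 0.01. The call of NID1 between TGF-β1 and FBS (0.39, edgeR adjusted p = 0.0426) was lost with the replicate block (edgeR adjusted p = 0.0633). NID1, nidogen-1, averaged 90.5 ± 8.53 CPM with TGF-β1, 69.2 ± 17.1 with FBS and 659.8 ± 227 in serum-free medium (-2.87 and -3.25). COL15A1, a collagen of the basement membrane zone, rose in both (3.96 and 4.48) and the laminin chain gene LAMA5 fell in both (-2.65 and -2.52). LAMA4 rose with TGF-β1 (2.08) and did not pass with FBS (-0.03). LAMA2 fell with FBS (-3.25), and LAMB3 fell in both (-0.62 and -4.37). With TGF-β1 LAMA2 (-0.06) and LAMA1 (-0.53) did not pass, nor did NID2 with FBS (0.25, edgeR adjusted p = 0.0998).

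Integrin subunits of the receptors reported to bind fibulin-5 rose in 5 of 6 cases with TGF-β1 (median 1.51, beside 31.2% of all genes and a median of -0.03) and in 5 with FBS (median 1.48, beside 39.5% and -0.04). ITGB3 averaged 67.5 ± 21.9 CPM with TGF-β1, 31 ± 1.85 with FBS and 0.607 ± 0.268 in serum-free medium (6.78 and 5.66). ITGAV (2.76 and 1.33), ITGA5 (1.53 and 2.33), ITGB1 (1.49 and 1.01) and ITGA4 (0.72 and 1.64) rose in both treatments, and ITGB5 fell in both (-1.0 and -1.87).

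**Figure D5:**
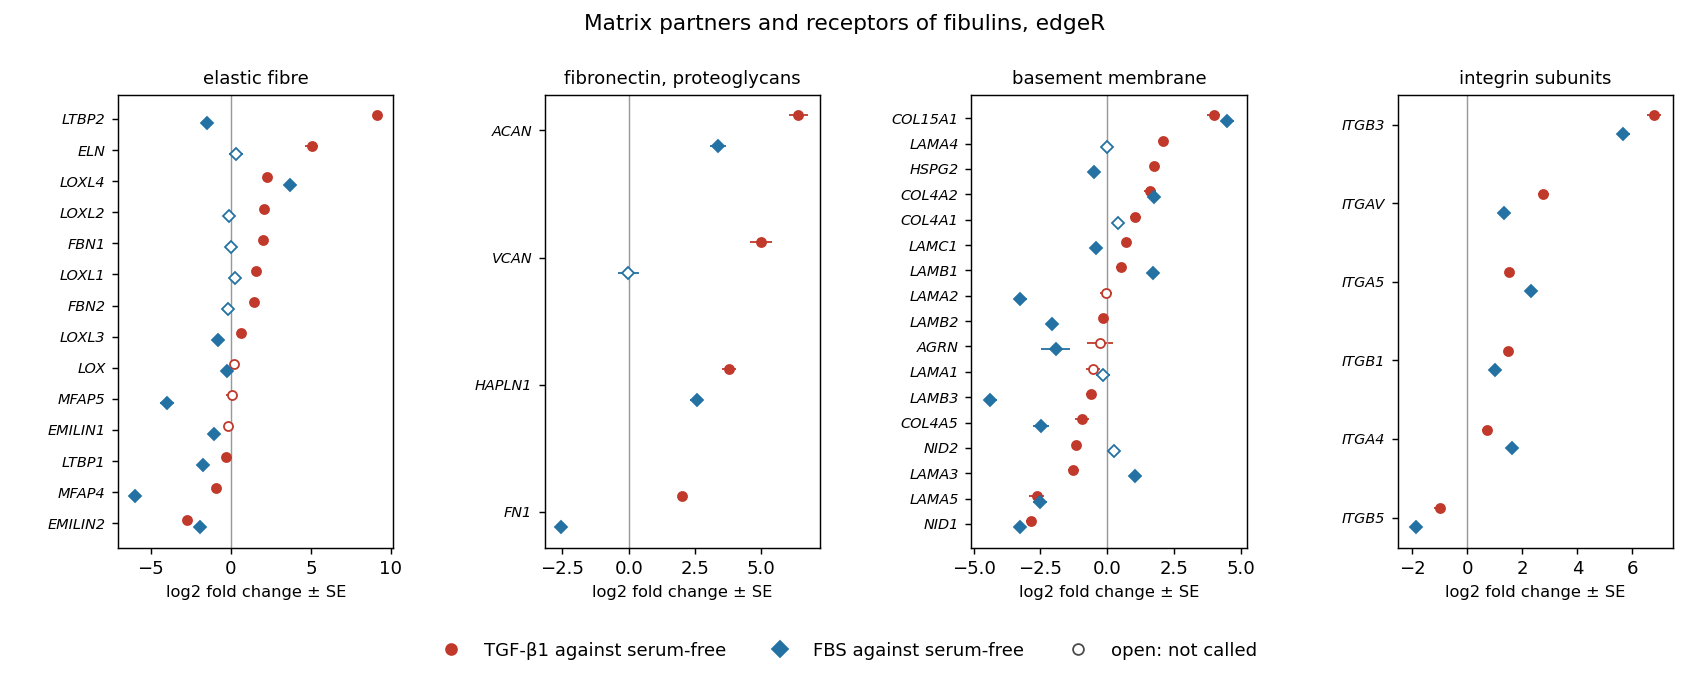
Log2 fold change against serum-free medium (edgeR, with SE) of tested genes in lists of fibulin partners, for TGF-β1 (circles) and FBS (diamonds), open where the gene did not pass. With TGF-β1 8 of 14 elastic fibre genes passed as higher, with FBS 1 did, and 5 of 6 integrin subunits passed as higher in each, beside 31.2% of all genes with TGF-β1 and 39.5% with FBS.

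Of 10 tested proteases, inhibitors and enzymes reported to bind or cut fibulins, 4 rose and 5 fell with TGF-β1 (median -0.71, but 0.33 in library numbers 5 to 8 and -0.63 in 9 to 12), and 3 rose and 7 fell with FBS (median -2.01). Over all genes 31.2% and 33.1% rose and fell with TGF-β1 and 39.5% and 40.5% with FBS. The fall of MMP3 with FBS (-1.85, edgeR adjusted p = 0.0163) was lost with the replicate block (edgeR adjusted p = 0.144), and its sign differed between library numbers 5 to 8 (1.42) and 9 to 12 (-2.61). SOD3, an extracellular superoxide dismutase that fibulin-5 binds in mice, fell in both (-1.26 and -4.04), as did ADAMTS12 (-1.89 and -3.50). ADAMTS1, a protease for which fibulin-1 is a cofactor, rose in both (4.75 and 5.00), and the gelatinase MMP2 rose with TGF-β1 (2.23). ADAMTS5 fell with FBS (-3.63), and MMP3 did not pass with TGF-β1 (-0.56, edgeR adjusted p = 0.468). MMP7 had 656 counts with TGF-β1, 38 with FBS and 2 in serum-free medium over 8 libraries each.

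Of 6 other tested matrix genes with EGF-like repeats, 1 rose and 5 fell with TGF-β1 (median -0.80), and with FBS none rose and 4 fell (median -2.24), beside 31.2% and 33.1% of all genes higher and lower with TGF-β1 and 39.5% and 40.5% with FBS. The fall of NELL2 with TGF-β1 (-0.73, edgeR adjusted p = 0.0368) was lost with the replicate block (edgeR adjusted p = 0.0588). MATN3, a cartilage matrilin, was the gene that rose with TGF-β1 (5.88). MATN4 (-2.19 and -6.20), MATN2 (-0.89 and -3.78) and the nephronectin gene NPNT (-0.87 and -1.90) fell in both. SVEP1 fell with FBS (-2.58), where MATN3 (0.69) and NELL2 (-0.42) did not pass.

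The genes with the pattern most like each member were found by Pearson's r of log2 CPM over all 24 libraries, among 8851 named genes whose mean reached 10 CPM in some condition. These libraries share conditions and sets, so r is a description. Genes near to FBLN5 were PRELP (r = 0.992) and GAL3ST4 (r = 0.991), and EFEMP1 was nearest to GINS2 (r = 0.984), TUBB (r = 0.982), TUBB4A (r = 0.980). FBLN7 was nearest to FTO (r = 0.968), TMEM56 (r = 0.955), PPP1R2 (r = 0.953), and HMCN1 to KIF5C (r = 0.978), NAALADL2 (r = 0.975), FEM1B (r = 0.975). FBLN1 was nearest to C4A (r = 0.936), GRINA (r = 0.933), OFD1 (r = 0.923), and FBLN2 to PYURF (r = 0.764), PHAX (r = 0.745), EIF5 (r = 0.741). With condition means removed, r was 0.794 to 0.808 for these genes near to FBLN5 and 0.454 to 0.644 for those nearest to EFEMP1. Among the members EFEMP1 ran opposite to FBLN5 (-0.945) and to HMCN1 (-0.887), and with condition means removed these values were 0.427 and 0.0195. FBLN1 and HMCN1 had -0.821 with condition means removed.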

How the data were processed

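Gene counts from 24 RNA-seq libraries were analysed. The authors deposited whole-number counts per gene, not normalized, per the file headers and values, and FPKM values of the same genes, scaled to gene length and library size. The aligner, counting program, use of strand, build and annotation are in none of the sources used here. Counts were tested in R 4.3.3 with edgeR 4.0.16: filterByExpr by condition, TMM scaling, 1 coefficient per condition over all 24 libraries, the quasi-likelihood F-test and Benjamini-Hochberg adjustment over 13308 genes, called at an adjusted p under 0.05. CPM use TMM library sizes. Alternatives were DESeq2 1.42.0, limma 3.58.1 on log2(FPKM + 0.1) and log2(FPKM + 1), scaling by total counts, no filter, the 16 libraries compared alone, a replicate block, the set of library numbers as a covariate, each set alone, and left-out libraries. The edgeR steps were tested on simulated data first.

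Same-numbered libraries deviated together in all 8 pairs of each comparison (r of residuals 0.177 to 0.362, 0.115 to 0.429 and 0.103 to 0.332). Same-numbered libraries also share a set, and no r between differently numbered libraries of a set is given here. These values therefore cannot tell pairing by number from a shared set. The replicate block took the numbers of the titles as pairs, which no label states. No library repeated another within a condition (chi-square per gene at least 2.84).

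The text names all members, of each partner list up to 4 called genes with the largest change per treatment and up to 2 that did not pass, and the 3 genes most like each member, 1 of which is not reported here. HMCN2, the marker genes given by name and the unnamed records are outside that rule and were chosen after values were seen, as were the record ratio, the added records and the set-by-condition term. Members and lists were chosen with earlier results of these data known.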

Additional observations from a re-analysis of the deposited data

Results flagged for a closer look

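For several members the log2 fold change differed between library numbers 9 to 12 and 5 to 8, by edgeR's set-by-condition term. The values are the change in 9 to 12 minus that in 5 to 8. With TGF-β1 against serum-free medium they were -0.51 for FBLN1 (edgeR adjusted p = 0.0340), -0.54 for FBLN5 and 1.66 for FBLN7. With FBS against serum-free medium they were -1.18 for FBLN2, 1.63 for FBLN7 and 1.24 for EFEMP1. Between TGF-β1 and FBS they were -0.49 for FBLN1 (edgeR adjusted p = 0.0253), -0.49 for FBLN5 (edgeR adjusted p = 0.000113), -2.08 for EFEMP1 (edgeR adjusted p = 0.00252) and -0.74 for HMCN1 (edgeR adjusted p = 0.0311). Over all genes the term passed for 10.3%, 22.4% and 23.9% in these comparisons. The labels do not say what the sets stand for, and their part was not tested.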

How the results depend on the processing

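Of 18 values, 6 members in 3 comparisons, 11 kept their direction and their side of the threshold in every setting tried, among them those of FBLN5 and EFEMP1. With 1 library left out, 3 to 5 members were called for TGF-β1 against serum-free medium, the fewest without TGF-β1 replicate 2, where FBLN1 and HMCN1 were lost. Over all genes these fits called 8346 to 8858, beside 8563 (64.3%) with all libraries. FBLN2 changed sign with FBS against serum-free medium in library numbers 9 to 12 alone (-0.28). Between TGF-β1 and FBS, where its value was near 0, it turned negative with total-count scaling (-0.38), no filter (-0.0097), numbers 5 to 8 alone (-0.19), without FBS replicates 5 and 6 (-0.15) and in some fits without 1 library (-0.0624 to 0.128). The cause was not tested. With the replicate block 9385, 11104 and 10311 genes were called for TGF-β1 against serum-free medium, FBS against serum-free medium and TGF-β1 against FBS, and FBLN1 in the last was the 1 member whose call changed. Of the partners LOX and NELL2, MMP3 and NID1 changed their call with the block in these comparisons. Total-count scaling moved the median of all genes by -0.14, 0.26 and -0.40. Depth limits EFEMP1 with TGF-β1 (129 counts over 8 libraries).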
